A study of Homo sapiens with 12 samples.

Results

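The interaction of fusion induction and Mediator kinase inhibition was examined in HK-2, an established line of human kidney proximal tubule cells, in all 12 of the 12 RNA-seq libraries of the study. The cells carried a doxycycline (Dox)-inducible PRCC-TFE3 gene, the fusion of PRCC with the transcription factor gene TFE3 that occurs in translocation renal cell carcinoma. Cells were cultured for 48 h under 4 conditions with 3 biological replicates each, namely Dox plus the CDK8 and CDK19 inhibitor MSC2530818 at 100 nM, the inhibitor at 100 nM alone, Dox alone, and vehicle (DMSO). All groups carried the inducible construct and grew in medium with puromycin and blasticidin S, and no group gave Dox to cells without the fusion, so an effect of Dox itself and an effect of the fusion cannot be told apart. Whether the cells were 1 clone or a pool is not given in the sources used here.

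The quantity described is the interaction, which for each gene is the Dox change with inhibitor minus the Dox change without inhibitor. Both changes are differences of mean log2(FPKM + 1), where FPKM is the deposited fragment value scaled for transcript length and library size. A gene was tested when it reached an FPKM of 1 in at least 3 of the 12 libraries, which held for 12649 of the 26334 genes in the table (48%). A negative interaction means that the Dox change was less positive, or more negative, when the inhibitor was present. Genes were called at a Benjamini-Hochberg adjusted p under 0.05 in limma, two-sided, over all tested genes. Values after ± are SE for log2 differences. The log2(FPKM + 1) scale understates changes of genes with low FPKM.

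TFE3 belongs to the MiT/TFE family of basic helix-loop-helix transcription factors, which bind E-box-like sites in the promoters of lysosomal, autophagy and nutrient-sensing genes and are normally held in the cytoplasm by mTORC1 and folliculin signalling. Fusion to PRCC keeps the DNA-binding part of TFE3 and gives a protein that is largely nuclear. CDK8 and CDK19 are the alternative kinases of the Mediator kinase module, a part of the Mediator complex that links transcription factors to RNA polymerase II and can raise or lower the transcription of a gene.

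The labelled cell type was checked against defining markers. Of 8 proximal tubule markers, 3 reached 1 FPKM in some library, PAX8 and GGT1 among them, while LRP2, CUBN, AQP1, PAX2 and ANPEP stayed below it, and 5 of 6 epithelial markers were detected with CDH1 at or near 0. The 4 endothelial, 4 leukocyte, and 5 distal tubule and collecting duct markers stayed below 1 FPKM in every library. The fuller lists of these types each had 1 tested member, EGFL7, CD68 and AVPR2, with interactions of -0.10, -0.38 and -0.27 that did not pass (adjusted p = 0.89, 0.19 and 0.63). Of 4 podocyte markers PODXL alone reached 1 FPKM, WT1 was listed at 0 in all libraries, and the sum of the 4 was 5.04 to 5.41 FPKM with Dox plus inhibitor, 8.42 to 9.58 with inhibitor, 4.71 to 5.44 with Dox and 5.12 to 6.01 with vehicle. PODXL, named after its values were seen, had a called interaction of -0.54 ± 0.11 (adjusted p = 0.020). Summed fibroblast markers were 5.51 to 6.96 FPKM with Dox plus inhibitor, 4.73 to 7.02 with inhibitor, 10.6 to 11.9 with Dox and 6.14 to 6.74 with vehicle, with LUM and COL1A1 the members that reached 1 FPKM. LUM, which encodes the matrix proteoglycan lumican and was singled out after its values were seen, had an interaction of -1.22 ± 0.32 that did not pass (adjusted p = 0.080). In bulk RNA, fewer cells of a type and less RNA per cell cannot be told apart.

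Promoter sequences of the genes at both ends of the interaction are shown first, as RefSeq gives them on GRCh38.p14 from 250 bases before to 50 bases after the start of transcription, written 5′ to 3′ on the strand of the gene. The genes are the 4 with the most negative interaction among called genes with a group mean of at least 5 FPKM and a RefSeq promoter, and the gene with the most positive one. Capitals mark CATGTG on either strand, a site that MiT/TFE proteins can bind, and here both matches read CACATG.
GPNMB promoter, chr7:23246525-23246824, plus strand: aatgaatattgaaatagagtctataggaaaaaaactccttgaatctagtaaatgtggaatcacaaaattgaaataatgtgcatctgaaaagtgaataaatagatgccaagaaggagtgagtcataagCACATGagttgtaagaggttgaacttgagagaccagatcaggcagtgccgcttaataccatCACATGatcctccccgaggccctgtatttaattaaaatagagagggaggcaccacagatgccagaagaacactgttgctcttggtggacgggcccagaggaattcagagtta
NMRK2 promoter, chr19:3933339-3933638, plus strand: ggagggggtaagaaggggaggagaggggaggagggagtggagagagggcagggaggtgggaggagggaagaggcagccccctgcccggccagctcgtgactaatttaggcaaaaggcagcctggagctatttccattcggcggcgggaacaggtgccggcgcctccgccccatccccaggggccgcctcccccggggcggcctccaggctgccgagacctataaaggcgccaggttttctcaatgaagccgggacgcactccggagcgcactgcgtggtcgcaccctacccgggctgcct
SPINK1 promoter, chr5:147831622-147831921, minus strand: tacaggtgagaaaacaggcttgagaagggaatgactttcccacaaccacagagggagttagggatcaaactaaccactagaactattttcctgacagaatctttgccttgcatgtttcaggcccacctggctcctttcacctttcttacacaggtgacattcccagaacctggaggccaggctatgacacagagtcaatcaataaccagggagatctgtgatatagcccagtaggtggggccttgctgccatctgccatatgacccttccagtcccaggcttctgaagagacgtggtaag
PTGES promoter, chr9:129752993-129753292, minus strand: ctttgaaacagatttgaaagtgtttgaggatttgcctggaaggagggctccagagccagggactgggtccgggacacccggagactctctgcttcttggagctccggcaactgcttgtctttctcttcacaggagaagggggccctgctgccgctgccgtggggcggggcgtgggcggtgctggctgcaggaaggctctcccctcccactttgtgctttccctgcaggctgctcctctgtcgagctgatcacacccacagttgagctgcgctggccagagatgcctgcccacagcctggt
EDN2 promoter, chr1:41484634-41484933, minus strand: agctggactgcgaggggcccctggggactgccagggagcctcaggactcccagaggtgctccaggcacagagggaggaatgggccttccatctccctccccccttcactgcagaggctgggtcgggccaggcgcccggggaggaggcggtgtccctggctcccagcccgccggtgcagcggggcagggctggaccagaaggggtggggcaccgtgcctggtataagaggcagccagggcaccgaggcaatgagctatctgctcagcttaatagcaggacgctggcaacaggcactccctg

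The GPNMB window held the 2 CATGTG matches, starting at bases 128 and 189, and the second lies inside TCATGTGA read on the opposite strand. The other 4 windows held no CATGTG, and none of the 5 held the palindrome CACGTG. Over all called genes with a RefSeq promoter (254 of 357 matched by symbol), CACGTG was in a promoter of 27.2% of 169 genes with a negative interaction, 8.24% of 85 with a positive interaction, 12.8% of 9426 tested genes and 8.77% of 27305 genes of the RefSeq table. CATGTG on either strand was in 20.1%, 8.24%, 9.70% and 13.4% of these 4 sets in the same order, and TCATGTGA, which contains it, in 8.28%, 0, 1.22% and 1.24%. TCACGTGA, which contains CACGTG, was in 4.73%, 0, 2.37% and 1.18%. Genes with several RefSeq promoters counted once if any held the letters, and a match is a description of the window and not a bound site.

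Of 12649 tested genes, 357 were called in the interaction (2.82%). The interaction was negative for 242 genes (1.91%) and positive for 115 (0.909%), so 67.8% of the calls were negative, although the median interaction over all tested genes was 0.05 with quartiles of -0.07 and 0.15. A difference of at least 2-fold was reached by 41 of the negative and 5 of the positive genes. The count of calls was 198 without vehicle replicate 2, 186 without Dox replicate 2, 207 without Dox replicate 3 and 204 without inhibitor replicate 2. It was 237 when Dox plus inhibitor replicate 2 was left out and 214 when replicate 3 of that group was.

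The Dox changes on each side share no library with each other, while the interaction shares libraries with both. Dox changed 2304 genes with inhibitor (18.2%), 1537 higher (12.2%) and 767 lower (6.06%). It changed 2269 genes without inhibitor (17.9%), 1344 higher (10.6%) and 925 lower (7.31%). The count with inhibitor was 1352 without inhibitor replicate 2, and 1245 and 1121 without Dox plus inhibitor replicates 2 and 3. The count without inhibitor was 1492 when vehicle replicate 2 was left out and 1427 when Dox replicate 3 was. Across the tested genes, which are not independent replicates, the least-squares slope of the change with inhibitor on the change without inhibitor was 0.51, with Pearson r of 0.55 and Spearman rho of 0.66, given as a description. Of the 71 genes that Dox raised at least 2-fold without inhibitor, 41 were also called higher with inhibitor, 1 was called lower with inhibitor, and 6 still rose at least 2-fold with inhibitor. Their median Dox change was 0.46 with inhibitor (quartiles 0.22 and 0.68) and 1.23 without inhibitor. Of the 21 genes that Dox lowered at least 2-fold without inhibitor, 19 were also called lower with inhibitor, with median changes of -0.77 with inhibitor and -1.12 without inhibitor. These genes were selected on the change without inhibitor, and the same view from the other side gave 12 genes raised at least 2-fold with inhibitor, with medians of 1.24 with inhibitor and 0.95 without inhibitor. For the 26 genes lowered at least 2-fold with inhibitor the medians were -1.37 with inhibitor and -0.65 without inhibitor.

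**Figure D1:**
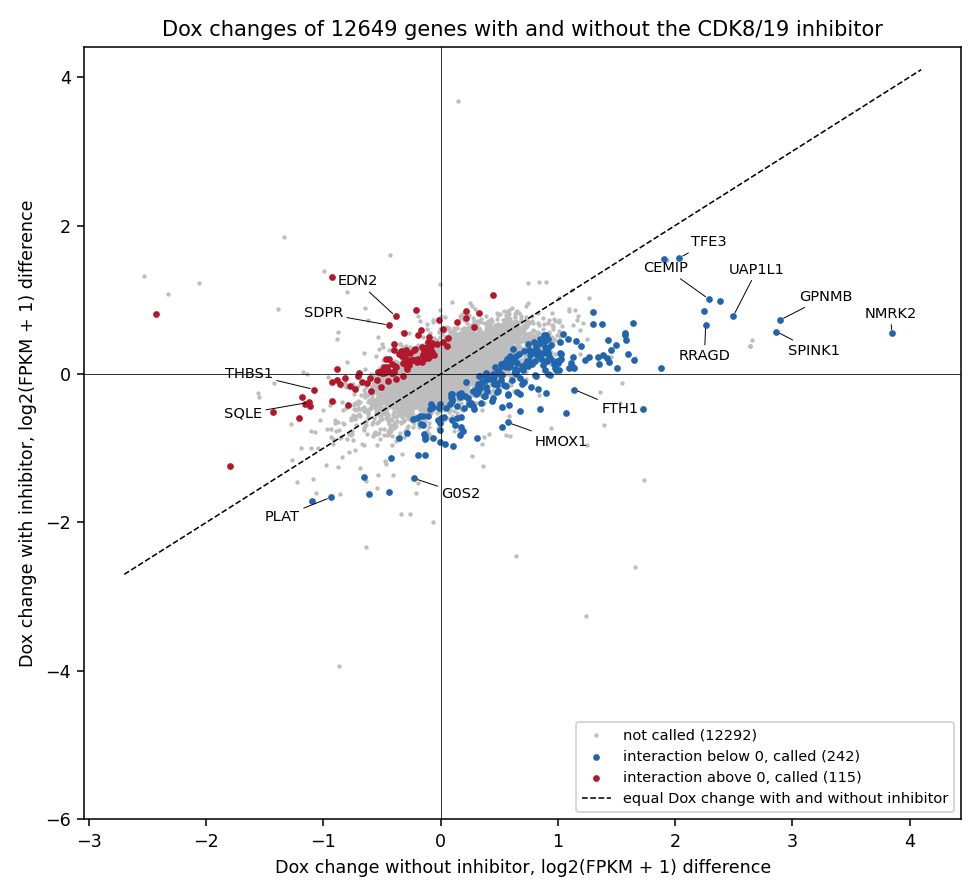
Each point is 1 of 12649 genes, with the Dox change with inhibitor on the y axis and the Dox change without inhibitor on the x axis, both as log2(FPKM + 1) differences of 3 libraries a group. The 242 called genes below the dashed line of equal change have a negative interaction and the 115 above it a positive one, and of the called genes NMRK2 lies farthest below it.

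The fusion partner and the targets of the drug were examined before other genes. TFE3 values, which count reads of both the resident gene and the introduced fusion transcript, were 87.6, 83.2 and 81.7 FPKM with Dox plus inhibitor, 29.7, 27.4 and 26.3 with inhibitor, 149, 154 and 146 with Dox, and 38.9, 35.8 and 32.7 with vehicle. All Dox libraries were above all libraries without Dox, and each Dox plus inhibitor library was below each Dox library. Dox raised TFE3 by 1.57 ± 0.07 with inhibitor and by 2.04 ± 0.07 without inhibitor, an interaction of -0.47 ± 0.10 (adjusted p = 0.023). The call ended without any 1 of vehicle replicate 2, inhibitor replicate 2, Dox replicates 1 to 3, or Dox plus inhibitor replicates 2 and 3, with values between -0.49 and -0.45. The lower TFE3 level with Dox plus inhibitor than with Dox accompanies every result below, and its part in them was not tested.

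PRCC rose with Dox on both sides and its interaction of -0.22 ± 0.14 did not pass (adjusted p = 0.57). CDK8 had an interaction of 0.02 ± 0.11 (adjusted p = 0.97) and CDK19 one of 0.28 ± 0.12 (adjusted p = 0.34). No member of the 7-gene Mediator kinase module, which also includes CCNC and MED12, was called, and its median was 0.08.

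Genes used as markers or known targets of translocation renal cell carcinoma had the most calls for their number among the lists. Of 19 tested members, 13 were called with a negative interaction and 0 with a positive one, against 1.91% and 0.909% of all tested genes, and the median was -0.83 against 0.05 for all tested genes. The median Dox change of the list was 0.24 with inhibitor and 1.01 without inhibitor. The list was drawn up with earlier results of these data known, and members of it are also in the lysosomal and folliculin lists.

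NMRK2 (chr19:3933103-3942416, plus strand, GENCODE on GRCh38), a nicotinamide riboside kinase of NAD+ synthesis that is otherwise mainly a muscle gene, had the lowest interaction of the called genes. Its levels were 0.29, 1.07 and 0.46 FPKM with Dox plus inhibitor, 0.06, 0 and 0.18 with inhibitor, 12.5, 16.6 and 16.7 with Dox, and 0.11, 0.08 and 0.17 with vehicle. The Dox libraries stood far above the other 3 groups, and without them NMRK2 would not have met the filter. The p-value of NMRK2 does not allow for that. The Dox change was 0.55 ± 0.16 with inhibitor and 3.85 ± 0.16 without inhibitor, and the interaction was -3.30 ± 0.23 (adjusted p = 3.4e-05).

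GPNMB (chr7:23235967-23275108, plus strand), a transmembrane glycoprotein of melanosomes and lysosomes that pathologists stain in TFE3-rearranged tumours, was measured at 12.3, 14.4 and 13.6 FPKM with Dox plus inhibitor, 7.40, 7.46 and 8.28 with inhibitor, 55.0, 60.7 and 60.3 with Dox, and 7.36, 6.43 and 7.27 with vehicle. The groups without Dox lay side by side, Dox plus inhibitor lay above them, and Dox lay above all 3. Dox raised it by 0.73 ± 0.08 with inhibitor and by 2.90 ± 0.08 without inhibitor (interaction -2.17 ± 0.11, adjusted p = 4.3e-06). In the melanosome list, GPNMB and GPR143, a melanosomal receptor (-0.72), were the 2 called members of 9, against 1.91% negative calls over all tested genes.

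TRIM63, a muscle ubiquitin ligase used as an RNA marker of these tumours, was at 0.07, 0.06 and 0.04 FPKM with Dox plus inhibitor, listed at 0 in all 3 inhibitor libraries, at 2.59, 3 and 2.96 with Dox, and at 0.04, 0.03 and 0.07 with vehicle. Only the Dox libraries exceeded 1 FPKM, so TRIM63 met the filter through that group alone, and its p-value does not allow for that. Its interaction on the log2(FPKM + 1) scale was -1.80 ± 0.11 (adjusted p = 2e-05), and its Dox change with inhibitor did not pass (0.08 ± 0.08, adjusted p = 0.49). Of the 6 members of the marker list that were not called, PLIN2, a lipid droplet coat protein, was raised by Dox on both sides, by 0.87 with inhibitor and 1.09 without inhibitor (interaction -0.22 ± 0.07, adjusted p = 0.15). The others were UVRAG, PMEL, HIF1A, GABARAPL1 and CTSK, with interactions from -0.32 to 0.40.

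**Figure D2:**
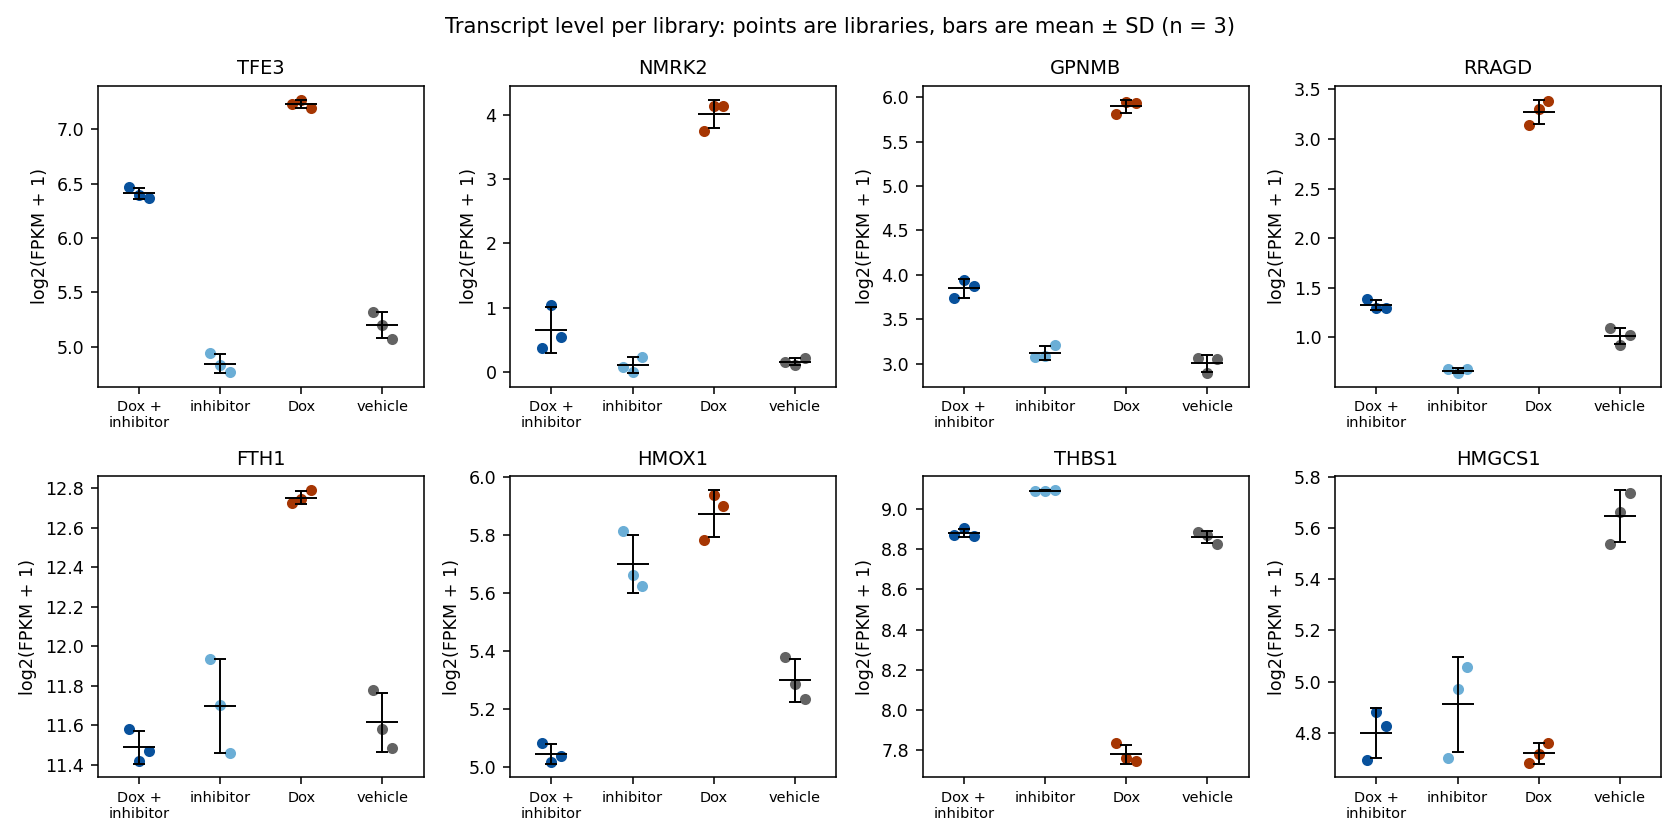
Levels of 8 genes as log2(FPKM + 1), with each library a point and the bars the mean ± SD of 3 libraries, in Dox plus inhibitor, inhibitor, Dox and vehicle from left to right. NMRK2, GPNMB, RRAGD and FTH1 are highest with Dox, HMOX1 is lowest with Dox plus inhibitor, and THBS1 is lowest with Dox.

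Folliculin, its partners FNIP1 and FNIP2 and the Rag GTPases form the lysosomal switch that controls mTORC1 and the location of MiT/TFE factors. Of 13 tested members, 4 had a called negative interaction (RRAGD, FNIP2, RRAGC and FLCN) and 0 a positive one. Over all tested genes the shares were 1.91% and 0.909%. The median of the list was -0.25, and 12 of the 13 estimates were below 0. RRAGD (chr6:89364636-89412270, minus strand) was at 1.62, 1.46 and 1.46 FPKM with Dox plus inhibitor, 0.60, 0.56 and 0.60 with inhibitor, 7.84, 8.84 and 9.45 with Dox, and 1.13, 0.90 and 1.04 with vehicle. The 4 groups did not overlap. Dox raised it by 0.66 ± 0.08 with inhibitor and by 2.26 ± 0.08 without inhibitor (interaction -1.60 ± 0.11, adjusted p = 3.4e-05).

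FNIP2 levels were 9.05, 9.89 and 9.80 FPKM with Dox plus inhibitor, 8.02, 9.46 and 9.57 with inhibitor, 17.1, 19.0 and 20.0 with Dox, and 5.18, 6.32 and 6.38 with vehicle. Here the groups with inhibitor overlapped, and both lay above vehicle and below Dox. The Dox change was 0.08 ± 0.09 with inhibitor (adjusted p = 0.53) and 1.50 ± 0.09 without inhibitor (interaction -1.42 ± 0.13, adjusted p = 0.00028). RRAGC kept part of its Dox change, at 0.68 ± 0.05 with inhibitor and 1.38 ± 0.05 without inhibitor. FLCN, named here after its values were seen, changed by 0.43 with inhibitor and 1.02 without inhibitor.

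Lysosomal hydrolases, the enzymes that degrade proteins, lipids and glycans in the lysosome, had 14 of 49 tested members called with a negative interaction, against 1.91% of all tested genes, and 0 with a positive one. Their median was -0.17, with a median Dox change of 0.15 with inhibitor and 0.37 without inhibitor. Dox raised 15 members with inhibitor and 31 without inhibitor, where 12.2% and 10.6% of all tested genes were raised. ACP5, the tartrate-resistant acid phosphatase, was at 14.3, 12.8 and 14.1 FPKM with Dox plus inhibitor, 11.8, 8.43 and 10.8 with inhibitor, 28.1, 28.7 and 28.3 with Dox, and 10.1, 9.10 and 9.12 with vehicle. Its Dox libraries held about the same value and lay above the rest. The interaction was -1.10 ± 0.14 for ACP5 (adjusted p = 0.0015) and -1.05 ± 0.18 for the acid ceramidase gene ASAH1 (adjusted p = 0.0091), which rose with Dox on both sides.

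CTSH, the gene of the protease cathepsin H, behaved otherwise within the same list. It was at 32.4, 29.2 and 28.6 FPKM with Dox plus inhibitor, 60.8, 52.2 and 48.6 with inhibitor, 31.3, 35.6 and 32.1 with Dox, and 32.8, 28.8 and 26.5 with vehicle. The inhibitor libraries were the ones that stood apart. Dox lowered CTSH with inhibitor (-0.82 ± 0.10, adjusted p = 0.00032), and its change without inhibitor did not pass (0.16 ± 0.10, adjusted p = 0.27). CTSA, CTSB and CTSD, further cathepsins named after their values were seen, had interactions of -0.93, -0.73 and -0.95.

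In the list of lysosomal membrane and trafficking proteins, 9 of 44 tested members were called with a negative interaction and 0 with a positive one. Over all tested genes the shares were 1.91% and 0.909%. In the list 37 estimates were below 0, with a median of -0.23. The negative calls numbered 17 with a GC and length trend removed, a setting with 500 negative calls among 11996 tested genes. MCOLN1, the lysosomal calcium channel, was at 5.96, 5.22 and 5.14 FPKM with Dox plus inhibitor, 5.81, 5.48 and 5.32 with inhibitor, 11.9, 13.1 and 12.8 with Dox, and 7.56, 6.82 and 5.99 with vehicle. The groups with inhibitor overlapped, and the Dox libraries were the highest (interaction -0.83 ± 0.12, adjusted p = 0.0029). The sialic acid transporter gene SLC17A5 (-0.83 ± 0.11, adjusted p = 0.0022) and the cystine transporter gene CTNS (-0.62 ± 0.09, adjusted p = 0.0046) were not called with inhibitor, with Dox changes of 0.19 and 0.18, and rose without inhibitor by 1.02 and 0.80.

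The V-ATPase, the proton pump that acidifies lysosomes, had a median interaction of -0.26, with 18 of 19 estimates below 0. Of the 19 tested subunits, 4 were called negative and 0 positive, against 1.91% and 0.909% of all tested genes. The count of negative calls was 1 without vehicle replicate 2, Dox replicate 2 or inhibitor replicate 2. It was 2 without vehicle replicate 3, Dox replicate 1 or 3, inhibitor replicate 1, or Dox plus inhibitor replicate 2 or 3. ATP6V0E1, a subunit of the membrane sector, was the called subunit with the smallest adjusted p (-0.45 ± 0.08, adjusted p = 0.0099). The count was 7 with a GC and length trend removed, a setting with 500 negative calls among 11996 tested genes. Dox raised 7 subunits with inhibitor and 14 without inhibitor, where 12.2% and 10.6% of all tested genes were raised, and ATP6V1A, the catalytic subunit, rose by 0.82 with inhibitor and 0.95 without inhibitor (interaction -0.13 ± 0.10, adjusted p = 0.65).

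Autophagy genes had 3 negative calls and 1 positive call among 41 tested members, against 1.91% negative and 0.909% positive over all tested genes, and a median of -0.05. SQSTM1, the cargo receptor p62, was at 167, 157 and 150 FPKM with Dox plus inhibitor, 214, 180 and 175 with inhibitor, 270, 308 and 293 with Dox, and 177, 152 and 139 with vehicle. Only the Dox group stood above the others (interaction -1.15 ± 0.14, adjusted p = 0.0013). PLEKHM1, an adaptor for the fusion of autophagosomes with lysosomes, had an interaction of -0.90 ± 0.10 (adjusted p = 0.0010). The positive call was NBR1, another cargo receptor named after its values were seen, at 0.33 ± 0.06 (adjusted p = 0.021), and the list had 0 positive calls without Dox replicate 1, 2 or 3, inhibitor replicate 2 or Dox plus inhibitor replicate 3.

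Iron storage and antioxidant genes had 3 negative calls among 22 tested members, against 1.91% of all tested genes, and a median of 0.03. FTH1 (chr11:61959718-61967660, minus strand), the heavy chain of ferritin, was at 3062, 2735 and 2833 FPKM with Dox plus inhibitor, 3915, 3327 and 2817 with inhibitor, 6766, 6861 and 7083 with Dox, and 3509, 3064 and 2864 with vehicle. Its Dox libraries were far above the other 3 groups, which overlapped. The Dox change was -0.21 ± 0.11 with inhibitor (adjusted p = 0.19) and 1.14 ± 0.11 without inhibitor (interaction -1.35 ± 0.16, adjusted p = 0.00099). FTH1 has many near-identical processed copies in the genome, so how its reads were assigned is uncertain. The light chain gene FTL, named after its values were seen, averaged 2298 FPKM with Dox plus inhibitor, 1828 with inhibitor, 6536 with Dox and 3574 with vehicle, and its interaction of -0.54 ± 0.13 did not pass (adjusted p = 0.060).

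HMOX1 (chr22:35380361-35394214, plus strand), heme oxygenase 1, was at 32.9, 31.4 and 31.9 FPKM with Dox plus inhibitor, 55.2, 49.6 and 48.3 with inhibitor, 54.0, 60.2 and 58.7 with Dox, and 40.6, 38.0 and 36.6 with vehicle. Dox plus inhibitor was the lowest group, below vehicle, although each agent alone gave values above vehicle. Dox lowered HMOX1 by 0.65 ± 0.06 on the log2 scale with inhibitor and raised it by 0.57 ± 0.06 without inhibitor (interaction -1.23 ± 0.09, adjusted p = 5e-05). OSGIN1 was the third called member of this list, also with a negative interaction. Its call ended when any 1 library other than inhibitor replicate 2 was left out, with values between -0.69 and -0.52. NQO1 (0.26 ± 0.14, adjusted p = 0.49) and TXNRD1 (-0.01 ± 0.06, adjusted p = 0.96) are NRF2 target genes picked from those not called, after their values were seen. These 2 genes do not stand for the list. Its negative calls numbered 5 with a GC and length trend removed, a setting with 500 negative calls among 11996 tested genes.

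Prostaglandin synthesis had 2 negative calls among 10 tested members, against 1.91% of all tested genes. PTGES (chr9:129738331-129753047, minus strand), the inducible prostaglandin E synthase, was at 3.86, 4.01 and 3.12 FPKM with Dox plus inhibitor, 5.60, 6.47 and 5.04 with inhibitor, 8.24, 7.31 and 7.78 with Dox, and 3.94, 3.01 and 2.67 with vehicle. Values with Dox plus inhibitor overlapped those with vehicle, while either agent alone lay above them. Dox lowered PTGES with inhibitor (-0.52 ± 0.12, adjusted p = 0.014) and raised it without inhibitor (1.07 ± 0.12, adjusted p = 0.00011), with an interaction of -1.59 ± 0.17 (adjusted p = 0.00054). PTGDS, a prostaglandin D synthase, had an interaction of -1.41 ± 0.27 (adjusted p = 0.019), which ended without vehicle replicate 2 (-1.38), Dox replicate 2 (-1.34) or Dox replicate 3 (-1.33), and with a pseudocount of 0.1 (-1.38, adjusted p = 0.062).

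Among the other leading negative genes, SPINK1, a secreted trypsin inhibitor, was at 0.58, 1.34 and 0.45 FPKM with Dox plus inhibitor, 0.23, 0.33 and 0 with inhibitor, 6.66, 9.06 and 5.73 with Dox, and 0.13, 0.19 and 0 with vehicle. The Dox group was the only one above 2 FPKM, and without it SPINK1 would not have met the filter. The p-value of SPINK1 does not allow for that. Its interaction was -2.29 ± 0.28 (adjusted p = 0.0013), and a pseudocount of 0.1 in place of 1 ended the call (adjusted p = 0.050). UAP1L1, a relative of the UDP-N-acetylglucosamine pyrophosphorylase gene, was at 4.51, 3.71 and 4.07 FPKM with Dox plus inhibitor, 1.9, 2.03 and 1.98 with inhibitor, 17.5, 19.0 and 18.5 with Dox, and 2.51, 2.66 and 2.12 with vehicle. No 2 groups overlapped (interaction -1.72 ± 0.11, adjusted p = 2.4e-05). RENBP, an enzyme of N-acetylglucosamine metabolism, kept a Dox change of 0.98 ± 0.11 with inhibitor, against 2.38 ± 0.11 without inhibitor (interaction -1.40 ± 0.16). The receptor gene TNFRSF14 (-1.47 ± 0.14) and the lysosomal thiol reductase gene IFI30 (-1.32 ± 0.12) had Dox changes of 0.18 and 0.27 with inhibitor and of 1.65 and 1.60 without inhibitor.

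TM4SF19, a tetraspan membrane protein, had opposite Dox changes, -0.47 ± 0.09 with inhibitor and 0.85 ± 0.09 without inhibitor (interaction -1.32 ± 0.12). Its antisense gene TM4SF19-AS1 (-1.24 ± 0.27, adjusted p = 0.033) overlaps it, and the strand setting of the counting is not given in the sources used here, so their reads may not be separate. That call ended when any 1 library other than Dox plus inhibitor replicate 2 was left out, with values between -1.33 and -1.07. G0S2, an inhibitor of triglyceride lipase, was at 1.53, 1.50 and 1.49 FPKM with Dox plus inhibitor, 6.89, 5.43 and 4.80 with inhibitor, 0.80, 0.67 and 0.86 with Dox, and 1.52, 1.32 and 0.53 with vehicle. Its interaction of -1.18 ± 0.24 (adjusted p = 0.023) came with inhibitor libraries above all others, and the call ended without inhibitor replicate 2, any 1 Dox library or any 1 Dox plus inhibitor library (-1.23 to -1.15), and with a pseudocount of 0.1 (-1.46, adjusted p = 0.105).

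**Figure D3:**
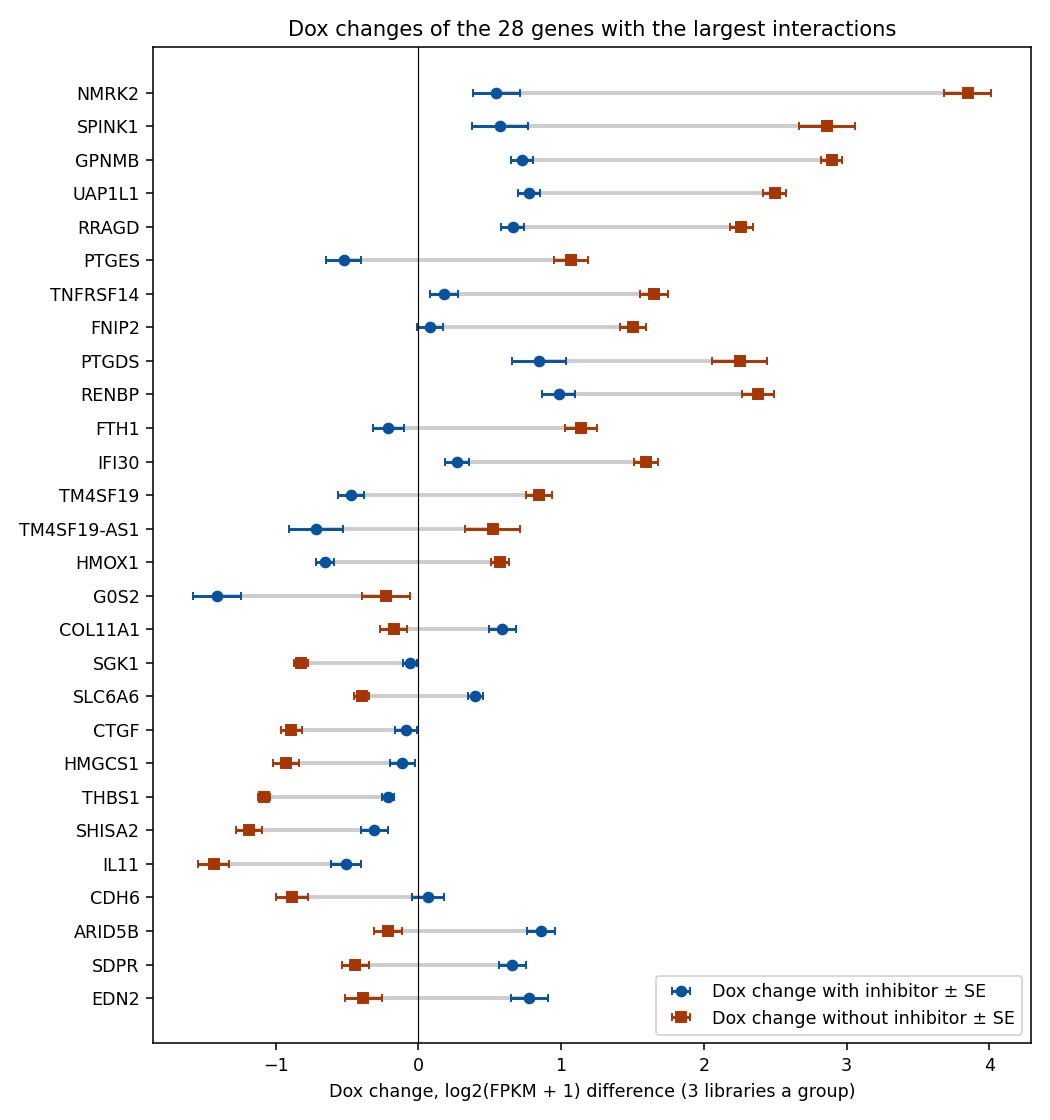
Dox changes with inhibitor (circles) and without inhibitor (squares) for the 16 most negative and 12 most positive called interactions among genes with a group mean of at least 5 FPKM, as log2(FPKM + 1) differences ± SE. The upper 16 genes have their circle left of their square, as in NMRK2 at 0.55 with inhibitor and 3.85 without, and the lower 12 genes have it to the right.

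Cholesterol synthesis and uptake was the list with the most positive calls. Of 25 tested members, 4 were called with a positive interaction (among them HMGCS1, SQLE and CYP51A1, the last named after its values were seen) and 0 with a negative one. Over all tested genes the shares were 0.909% and 1.91%. The median of the list was 0.35, and 24 estimates were above 0. Its median Dox change was -0.16 with inhibitor and -0.55 without inhibitor. The positive calls numbered 11 with a GC and length trend removed, a setting with 334 positive calls among 11996 tested genes. Dox lowered 6 members with inhibitor and 19 without inhibitor, where 6.06% and 7.31% of all tested genes were lowered. HMGCS1 (chr5:43289395-43313512, minus strand), the synthase that makes HMG-CoA, was at 24.9, 28.5 and 27.4 FPKM with Dox plus inhibitor, 25.03, 30.4 and 32.3 with inhibitor, 24.6, 25.3 and 26.1 with Dox, and 45.5, 49.7 and 52.4 with vehicle. Vehicle was the high group and the other 3 overlapped. The Dox change was -0.11 ± 0.09 with inhibitor (adjusted p = 0.39) and -0.93 ± 0.09 without inhibitor (interaction 0.82 ± 0.13, adjusted p = 0.0057).

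SQLE, squalene epoxidase, was at 50.8, 46.9 and 46.5 FPKM with Dox plus inhibitor, 64.7, 63.4 and 60.6 with inhibitor, 29.3, 30.7 and 29.2 with Dox, and 67.2, 64.2 and 66.1 with vehicle. The groups without Dox were close together, Dox plus inhibitor lay below them and Dox was the lowest (interaction 0.74 ± 0.07, adjusted p = 0.00034). The SQLE call ended with a GC and length trend removed (0.66, adjusted p = 0.057). MVD, a mevalonate pathway decarboxylase, fell on both sides, with changes of -0.77 with inhibitor and -1.11 without inhibitor (interaction 0.34 ± 0.16, adjusted p = 0.37). SREBF1, the gene of a sterol regulatory factor counted in the fatty acid list, went the other way from these genes, with an interaction of -0.83 ± 0.15 (adjusted p = 0.013).

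Lists of secreted and matrix-associated signals held calls of both signs, read against 0.909% positive and 1.91% negative calls over all tested genes. Extracellular matrix and protease genes had 2 positive and 3 negative calls among 25 tested members (median -0.02). Cytokines had 1 positive and 2 negative calls among 13 (median -0.235), and chemokines 1 positive and 0 negative among 8 (median -0.061). The negative cytokine count fell in 11 omissions of a single library, and the chemokine call was lost in 8. TGF-beta and SMAD targets had 3 positive calls and 1 negative call among 25 tested members (median 0.12), and the negative call was lost in 11 of the 12 omissions of a single library, all but that of vehicle replicate 1. The positive calls of TGF-beta and SMAD targets numbered 5 with a GC and length trend removed, a setting with 334 positive calls among 11996 tested genes. Growth factors had 3 positive calls and 1 negative call among 20 (median 0.05). THBS1 (chr15:39581079-39599466, plus strand), thrombospondin 1, was at 467, 478 and 466 FPKM with Dox plus inhibitor, 543, 543 and 545 with inhibitor, 227, 216 and 214 with Dox, and 473, 467 and 454 with vehicle. The Dox libraries were the lowest, and Dox plus inhibitor overlapped vehicle. Dox lowered THBS1 by 0.21 ± 0.04 on the log2 scale with inhibitor and by 1.08 ± 0.04 without inhibitor, an interaction of 0.87 ± 0.06 (adjusted p = 3.3e-05).

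CTGF, the matricellular growth factor CCN2, was at 241, 244 and 244 FPKM with Dox plus inhibitor, 291, 250 and 236 with inhibitor, 91.0, 82.9 and 88.6 with Dox, and 173, 159 and 157 with vehicle. The groups with inhibitor overlapped and were the highest, and Dox was the lowest. Its Dox change was -0.09 ± 0.07 with inhibitor (adjusted p = 0.41) and -0.89 ± 0.07 without inhibitor (interaction 0.80 ± 0.10, adjusted p = 0.0020). SGK1, a serum- and glucocorticoid-induced kinase, had changes of -0.06 ± 0.05 with inhibitor and -0.82 ± 0.05 without inhibitor (interaction 0.76 ± 0.07, adjusted p = 0.00023).

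For EDN1, the gene of the vasoconstrictor endothelin 1, the sign depended on the scale. Its levels were 21.8, 25.7 and 21.3 FPKM with Dox plus inhibitor, 30.6, 30.6 and 32.0 with inhibitor, 2.5, 2.43 and 2.21 with Dox, and 6.01, 6.09 and 6.92 with vehicle. The groups did not overlap, and both groups with inhibitor were above both without it. Dox lowered it on both sides, by 0.43 ± 0.08 on the log2 scale with inhibitor and by 1.12 ± 0.08 without inhibitor (interaction 0.69 ± 0.11, adjusted p = 0.0064). As a difference of FPKM, the same interaction was -4.21. The sign differed between the scales for 3 called genes, and CXCL8, a chemokine gene (0.55 ± 0.12 on the log2 scale, -28.3 FPKM on the linear scale), was another of them. None of the 242 negative genes changed sign. CXCL8 was also lost as a call without vehicle replicate 2 or 3, inhibitor replicate 2, any 1 Dox library, or Dox plus inhibitor replicate 2 or 3, with values between 0.49 and 0.57, and with quantile normalization (0.63, adjusted p = 0.057).

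EDN2 (chr1:41478775-41484673, minus strand), a second endothelin, had the highest interaction among called genes with a group mean of at least 5 FPKM. It was at 28.2, 29.9 and 25.9 FPKM with Dox plus inhibitor, 17.4, 15.8 and 14.6 with inhibitor, 12.04, 18.0 and 14.7 with Dox, and 21.5, 20.5 and 16.9 with vehicle. Dox plus inhibitor was above every other library, and the other groups overlapped. Dox raised it with inhibitor (0.78 ± 0.13, adjusted p = 0.0027), and the change without inhibitor did not pass (-0.38 ± 0.13, adjusted p = 0.064), for an interaction of 1.16 ± 0.18 (adjusted p = 0.0059). SDPR, a caveolar coat protein also named CAVIN2, was at 54.3, 54.2 and 55.3 FPKM with Dox plus inhibitor, 29.4, 35.6 and 38.3 with inhibitor, 32.4, 29.5 and 30.9 with Dox, and 37.9, 42.8 and 46.8 with vehicle. It rose with Dox in the presence of inhibitor and fell with Dox in its absence (interaction 1.10 ± 0.13, adjusted p = 0.0014).

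ARID5B, a chromatin-binding factor (1.07 ± 0.14), and COL11A1, a fibrillar collagen (0.76 ± 0.13), were also raised by Dox with inhibitor, by 0.86 and 0.59, and not called without inhibitor (-0.21 and -0.17). The taurine transporter gene SLC6A6 (0.80 ± 0.08) was raised by 0.40 with inhibitor and fell by 0.40 without inhibitor. The kidney cadherin gene CDH6 (0.95 ± 0.16), the cytokine gene IL11 (0.93 ± 0.15) and SHISA2 (0.88 ± 0.13) had Dox changes of 0.07, -0.51 and -0.31 with inhibitor and of -0.88, -1.43 and -1.19 without inhibitor, all 3 called lower on that side. PLAT, the tissue plasminogen activator gene, had a negative interaction (-0.73 ± 0.10, adjusted p = 0.0036) while Dox lowered it on both sides. It was at 11.3, 10.6 and 10.98 FPKM with Dox plus inhibitor, 38.3, 37.4 and 34.6 with inhibitor, 6.31, 6.05 and 5.23 with Dox, and 13.1, 11.8 and 11.5 with vehicle. The inhibitor libraries were the highest, and those of Dox the lowest.

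**Figure D4:**
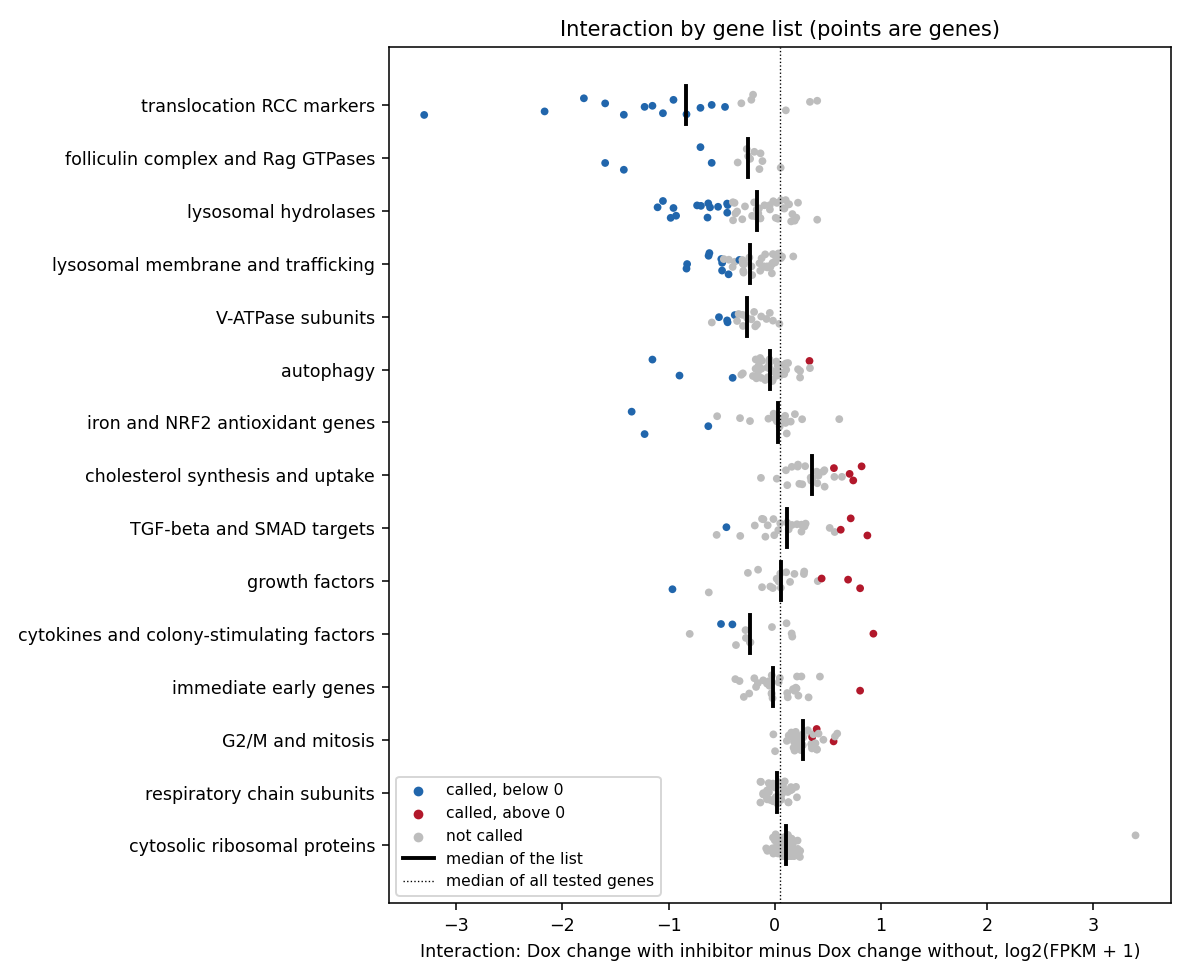
Interactions of the tested members of 15 gene lists, as log2(FPKM + 1), with thick bars at the median of each list and the dotted line at the median of all tested genes, 0.05. Translocation carcinoma markers (median -0.83) lie farthest to the left, cholesterol genes (0.35) and mitotic genes (0.27) to the right, and respiratory chain genes (0.02) near 0.

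Cell cycle lists differed in their medians. G2/M and mitosis genes had 39 of 40 estimates above 0 and a median of 0.27, with 3 called positive (0.909% over all tested genes) and 0 negative. The median Dox change was 0.27 with inhibitor, where 12 were called higher and 0 lower (12.2% and 6.06% of all tested genes). It was -0.03 without inhibitor, where 0 were called higher and 5 lower (10.6% and 7.31% of all tested genes). The 3 interaction calls became 5 with quantile normalization and 6 with a GC and length trend removed. Over all tested genes these settings gave 108 positive calls among 12649 and 334 among 11996. The 3 calls fell to 0 without Dox replicate 3 and to 1 without vehicle replicate 2, Dox replicate 2, inhibitor replicate 2, or Dox plus inhibitor replicate 1 or 3. G1/S and DNA replication genes had 0 calls among 35 and a median of 0.04. CDKN1A, the p21 inhibitor of cyclin-dependent kinases, was at 26.9, 27.4 and 27.2 FPKM with Dox plus inhibitor, 28.3, 28.2 and 25.2 with inhibitor, 36.7, 48.0 and 41.8 with Dox, and 24.5, 21.6 and 19.4 with vehicle. Its Dox change was 0.00 ± 0.10 with inhibitor (adjusted p = 1.0) and 0.92 ± 0.10 without inhibitor (interaction -0.92 ± 0.14, adjusted p = 0.0050). CDKN1A was 1 of 2 negative calls among 30 p53 and CDK inhibitor genes, against 1.91% of all tested genes. The other was the stress cytokine gene GDF15 (-0.96 ± 0.14).

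No call was made in 9 of the 37 lists with at least 5 tested members in the limma interaction at an adjusted p under 0.05. Of their 246 tested members, 27 had an unadjusted p under 0.05, against 1785 of all 12649 tested genes. Among these 9 lists were the 75 cytosolic ribosomal proteins (median 0.11), 41 respiratory chain subunits (0.02), 27 TCA cycle genes (0.03) and 28 unfolded protein and heat shock genes (0.12). The others were the G1/S and Mediator kinase lists above, 10 complement genes (0.01), 15 epithelial junction and keratin genes (0.12) and 8 proximal tubule genes (-0.21). Of the 8 proximal tubule genes, 7 had an unadjusted p under 0.05, and 5 estimates were below 0. That list had 1 negative call with quantile normalization. With a GC and length trend removed it had 3 negative calls and 1 positive call. That setting gave 500 negative and 334 positive calls among 11996 tested genes. The ribosomal gene RPL21, singled out after its values were seen, was listed at 0 in Dox replicate 1 and inhibitor replicate 3, has many near-identical copies, and had an estimate of 3.40 ± 2.24 that did not pass (adjusted p = 0.58). Hypoxia and glycolysis genes had 4 negative calls among 30, against 1.91% of all tested genes, with a median of 0.03. The neuronal enolase gene ENO2 (-0.63 ± 0.10, adjusted p = 0.0049) was 1 of the 4. The count was 1 without vehicle replicate 2, Dox replicate 2 or Dox plus inhibitor replicate 3, and 2 without vehicle replicate 3, Dox replicate 1 or 3, inhibitor replicate 2 or Dox plus inhibitor replicate 2. Among 25 ATF4 response genes, DDIT3, the stress factor CHOP, had an interaction of -0.54 ± 0.09 (adjusted p = 0.0059), with Dox changes of 0.40 with inhibitor and 0.94 without inhibitor.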

How the data were processed

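Poly(A) RNA was sequenced from 12 libraries made with a stranded TruSeq mRNA kit from TRIzol-extracted RNA, per the labels' protocols. The authors deposited 1 table of FPKM values with 26334 gene symbols and 12 columns, rounded to 2 decimals, and column names gave the sample of each column (0 columns were left unused). Per the submitters' processing notes, the tools were Salmon 1.9.0 and Trim Galore 0.6.7 and the builds GRCh38.p13 and hg38, and how transcripts were summed to genes is not given in the sources used here. Read totals are not in the table, so the depth is unknown and counting error has no interval here. Summed FPKM ran from 429208 to 473950 per library, and Pearson r within groups from 0.979 to 0.9932. At most 106 tested genes had identical values in a pair of libraries, and none was a duplicate.

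Values were analysed as log2(FPKM + 1), with the 4 groups as means in 1 limma 3.58.1 model (R 4.3.3, intensity trend, 8 residual degrees of freedom). In simulated data with known changes, this procedure recovered 43% of interactions of 0.5 and 79% of interactions of 1 on the log2 scale, with 3.17% of calls false, over 12649 genes. The changes were planted only in genes above a minimum mean level. The simulated noise was normal and independent between libraries, without a replicate or GC trend, so these rates need not hold for the measured data. Gene lists and all other choices were made with earlier results of these data known. Named were the 16 lowest and 12 highest called interactions among genes with a group mean of at least 5 FPKM, TFE3, PRCC, CDK8 and CDK19, and up to 3 called members of each list, without short RNA genes (3 called) and read-through genes (0 called). Of 44 lists, 37 had at least 5 tested members. Gene positions are those of GENCODE on GRCh38, and promoters those of RefSeq. Alternatives were another pseudocount, other filters, other scalings, no intensity trend, a replicate term, removal of a GC and length trend, and left-out libraries. A few genes included in the fits and counts are not reported here by name.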

Additional observations from a re-analysis of the deposited data

Results flagged for a closer look

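The effect of Dox differed with and without inhibitor for 357 genes by the interaction term of the limma model. For 25 of them Dox was called in opposite directions on the 2 sides, 15 with a negative and 10 with a positive interaction.

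The 15 negative genes fell with Dox in the presence of inhibitor and rose in its absence. Their interactions on the log2(FPKM + 1) scale were -1.59 for the prostaglandin synthase gene PTGES, -1.32 for TM4SF19, -1.23 for HMOX1, -1.17 for the non-coding gene LOC100507002, -1.17 for the circadian repressor gene BHLHE41 and -1.04 for the long non-coding RNA gene UCA1. Those of BIRC7, an inhibitor of apoptosis, GDF15 and PLEKHM1 were -0.997, -0.96 and -0.90. The muscle ubiquitin ligase gene FBXO32 had -0.85, the renal inositol oxygenase gene MIOX -0.80 and the cathepsin gene CTSB -0.73. TUBA8, a tubulin, DUSP10, a MAP kinase phosphatase, and RMND1, a mitochondrial protein, had -0.68, -0.67 and -0.57. In PTGES, TM4SF19 and HMOX1 the Dox changes were -0.52, -0.47 and -0.65 with inhibitor and 1.07, 0.85 and 0.57 without inhibitor.

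The positive genes rose with Dox in the presence of inhibitor and fell in its absence. Among their interactions were 1.10 for SDPR, 0.86 for the microRNA host gene MIR503HG, 0.80 for SLC6A6, 0.72 for the surface glycoprotein gene CD24 and 0.66 for TENM3. KDELC1, TNFRSF10D, the cyclin gene CCNB1 and the heterochromatin protein gene CBX1 had 0.53, 0.40, 0.39 and 0.32. Of these, the call for CCNB1 ended without vehicle replicate 2, Dox replicate 2 or 3, inhibitor replicate 2 or 3, or any 1 Dox plus inhibitor library, with values between 0.35 and 0.41, and with a GC and length trend removed (0.32, adjusted p = 0.11). TFE3 rose on both sides and less with inhibitor, and its part in these results was not tested.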

How the results depend on the processing

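On the linear FPKM scale 3 called genes changed sign, EDN1 and CXCL8 among them. Under the 24 alternatives run on the log2 scale, CDK8, which was not called, ranged from -0.06 to 0.08. It was the only one of the 78 genes named by rule to change sign. Of 75 that were called, 51 kept their call without each single library and 50 of those also under each other alternative except those added later. Calls were kept by 64 without all libraries numbered 1, by 5 without those numbered 2 and by 20 without those numbered 3. Under at least 1 of the 24 alternatives 71 lost their call, and 4 (NMRK2, GPNMB, TRIM63 and UAP1L1) kept it under each that gave a value. NMRK2 and TRIM63 would not have met the filter without the Dox libraries, and their p-values under that filter do not allow for that. Of the 28 leading genes, PTGDS, G0S2, TM4SF19-AS1 and SPINK1 lost theirs without a single library, with a pseudocount of 0.1 or without a filter. Called interactions numbered 322 with a pseudocount of 0.1, 369 without a filter, 290 with a mean FPKM of at least 5, 360 with median-ratio scaling, 359 with quantile normalization and 359 without the intensity trend, of which 314, 312, 275, 334, 302 and 338 were among the 357. The slope of the Dox change with inhibitor on that without was 0.42 with a pseudocount of 0.1 and 0.60 with a mean FPKM of at least 5.

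Whether replicate numbers pair the samples was judged from correlations of deviations from group means. Same-number r was 0.549, 0.133 and 0.337 between Dox plus inhibitor and inhibitor, 0.475, 0.065 and 0.321 between Dox plus inhibitor and vehicle, and 0.686, 0.097 and 0.505 between inhibitor and vehicle, but -0.09 to 0.198 in pairs with Dox. Different-number r ran from -0.594 to 0.244 over all groups. Between numbers 1 and 3 of Dox plus inhibitor, inhibitor and vehicle it ran from -0.594 to -0.354. As not every same-number pair exceeded 0.1, the numbers were not taken as a pairing. Variation shared by libraries of a number therefore stays in the error of the main model. With the replicate number as a block, 666 genes were called, 286 positive and 380 negative (57.1% negative), including 355 of the 357, with 4548 Dox genes with inhibitor and 3741 without inhibitor. Alternatives added after the data were seen removed a GC and length trend, since the interaction had a rank correlation of -0.22 with GC across genes. They gave 834 calls, 334 positive and 500 negative, with a slope of 0.42. With the block as well there were 1101, 503 positive and 598 negative, 4044 Dox genes without inhibitor, and a slope of 0.42. With the block, and with block and trend removal together, positive calls were 10 and 15 for G2/M genes, 10 and 16 for cholesterol genes, and 5 and 6 for TGF-beta and SMAD targets. Negative calls were 7 and 9 for V-ATPase subunits and 13 and 19 for lysosomal membrane genes. The cause was not tested.

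Without any 1 library or all 4 libraries of a replicate number, calls ranged from 7 to 489, positive ones from 1 to 189, negative ones from 6 to 300, Dox genes with inhibitor from 129 to 2975, Dox genes without inhibitor from 420 to 2665, and the slope from 0.4081 to 0.5965. With single libraries left out, calls ranged from 186 to 420. The lowest counts came without all libraries numbered 2, and the lowest slope without all those numbered 1. Calls numbered 489, 7 and 37 without all libraries numbered 1, 2 and 3. Each of these omissions left 4 residual degrees of freedom, so the calls depended on which number was left out. Depth is unknown, so no limit from counting error is given.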
